A study of Mus musculus with 12 samples.

Results

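The genes described here are 34 genes of glycolysis and of glucose and lactate transport, chosen by name: the glucose carriers Slc2a1 and Slc2a3, the enzymes from hexokinase to lactate dehydrogenase, the lactate carriers Slc16a1 and Slc16a3, the bifunctional enzymes that set fructose 2,6-bisphosphate, and the kinases of pyruvate dehydrogenase with its subunit Pdha1. Each was read from the array row that carries its symbol alone, and from the row with the highest mean where there were several. Of the 34 genes, 30 had such a row, out of 22180 genes in the whole table. Gpi1, Aldoa, Eno1 and Pfkfb1 had none and are not analysed here. Of the 30, 28 exceeded the limit for testing, which was the median of the whole table, 4.93 on the log2 scale, on at least 3 arrays, and they were tested among 13286 genes. Ldhb and Pdk4 did not meet it, with highest values of 5.09 and 4.83.

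The study grew mouse colorectal cancer in healthy or in fatty livers and gave vehicle or a treatment labelled Anti-VEGF. That gave 4 groups of 3 arrays, each labelled as a separate biological replicate of whole tumour tissue: healthy liver under vehicle, healthy liver under anti-VEGF, fatty liver under vehicle and fatty liver under anti-VEGF. The labels name no cancer line, anti-VEGF agent, host strain, age or sex, and do not say how the fatty liver was produced. All values below are log2 array values, so a difference of 1 is a 2-fold change, and values are compared between groups for one gene, never between genes.

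Glycolysis splits glucose into pyruvate in the cytosol. Glucose enters through facilitative carriers, hexokinase traps it by phosphorylation, phosphofructokinase commits it to breakdown, and lactate dehydrogenase with the monocarboxylate carriers disposes of the product when it is not burned in mitochondria. Several steps are served by isoforms with different tissue patterns: Hk3 is known from myeloid cells, Hk1 from most tissues, Pfkm from muscle and Eno2 from neurons and many tumours.

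Some arrays stood apart or lay unusually close. Arrays 1 and 3 of both vehicle groups and all 3 arrays of healthy liver under anti-VEGF differed from each other with an SD below 0.2 over the tested genes, while the other pairs within a group lay between 0.39 and 0.64. Those vehicle arrays 1 and 3 were also the 4 arrays with high Xist, the transcript of the inactive X chromosome. Healthy liver vehicle array 2 had an endothelial marker mean of 8.83 against 5.79 to 5.89 on the other 5 healthy liver arrays. Fatty liver anti-VEGF array 3 had 46% of the tested genes, and 15 of the 28 members, inside the range of the 6 healthy liver arrays, against 23.8% to 30% of the genes and 4 to 9 members on the other fatty liver arrays. Of 16 hepatocyte genes with a row, 4 exceeded the limit for testing, and albumin (Alb) lay below it on all 12 arrays. So did the epithelial marker Epcam, while Krt8 and Krt18, keratins of simple epithelia, were tested.

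Between fatty and healthy liver, Hk3 and Pfkfb3 rose most. Slc16a1 and Pfkm fell most under vehicle, and Pfkm and Eno2 under anti-VEGF, while most other steps of the pathway did not pass the test. Under vehicle 4 of the 28 members rose (14.3%) and 7 fell (25%). Over all 13286 genes 19.2% rose and 30.4% fell, both above the shares of the members. Under anti-VEGF 5 members rose (17.9%) and 6 fell (21.4%), against 18.2% and 27.6% of all genes. The calls are from limma with Benjamini-Hochberg adjusted p at most 0.05 over all tested genes. Hk3, Pfkfb3 and Pfkfb4 rose, and Slc16a1, Pfkm, Eno2, Minpp1 and Slc2a1 fell, in both comparisons, which use different arrays and 1 shared estimate of the spread. The members' median difference was -0.03 in the vehicle groups and -0.14 in the anti-VEGF groups, beside -0.12 and -0.13 for all genes. When near-identical arrays were averaged to leave 8 samples, Hk3 was the only member called in either comparison.

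Promoter sequence is shown for the members with the largest rises and, under vehicle, the largest fall, because hypoxia-inducible factors are known to drive many glycolytic genes through short elements near the start. The sequences are the 250 bases before a transcript start from RefSeq on GRCm38.p6, written in the direction of the gene, with capitals marking ACGTG or GCGTG or their reverse complements, CACGT and CACGC. The Hk3 window is chr13:55021386-55021635 on the minus strand, the Pfkfb3 windows are chr2:11502091-11502340 (downstream start) and chr2:11553930-11554179 (upstream start) on the minus strand, and the Slc16a1 window is chr3:104638414-104638663 on the plus strand.
Hk3: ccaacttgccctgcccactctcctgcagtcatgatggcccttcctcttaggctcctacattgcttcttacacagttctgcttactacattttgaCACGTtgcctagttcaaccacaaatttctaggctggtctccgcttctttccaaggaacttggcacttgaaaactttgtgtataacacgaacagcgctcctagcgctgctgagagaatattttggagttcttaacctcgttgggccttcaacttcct
Pfkfb3, downstream start: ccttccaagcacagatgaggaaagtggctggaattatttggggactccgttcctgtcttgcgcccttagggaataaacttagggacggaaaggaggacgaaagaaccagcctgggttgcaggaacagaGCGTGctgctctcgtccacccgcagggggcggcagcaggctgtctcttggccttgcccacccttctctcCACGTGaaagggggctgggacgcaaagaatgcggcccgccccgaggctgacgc
Pfkfb3, upstream start: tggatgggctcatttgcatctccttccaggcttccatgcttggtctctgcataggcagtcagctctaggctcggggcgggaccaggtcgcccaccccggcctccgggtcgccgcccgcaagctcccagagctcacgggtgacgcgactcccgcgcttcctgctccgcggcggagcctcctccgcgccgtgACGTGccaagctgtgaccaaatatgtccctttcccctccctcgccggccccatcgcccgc
Slc16a1: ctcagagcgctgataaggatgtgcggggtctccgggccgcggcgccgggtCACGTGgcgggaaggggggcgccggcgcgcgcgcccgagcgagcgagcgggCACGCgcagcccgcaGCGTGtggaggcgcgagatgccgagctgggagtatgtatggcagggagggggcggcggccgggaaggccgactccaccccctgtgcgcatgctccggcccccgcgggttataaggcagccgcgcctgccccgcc
Hk3 held 1 core in a window of 47.2% G and C, the 2 windows of Pfkfb3 held 3 and 1, and Slc16a1, which fell, held 4 in a window of 76.4% G and C. CACGTG holds ACGTG on both strands and was counted as 2 overlapping matches. Of the 52 windows of the 33 members found in the table, 75.0% held either motif, against 38.6% of all 32851 windows. ACGTG was in 36.5% of the members' windows and in 16.6% of all, and GCGTG in 51.9% and 28.2%. The median G and C content was 58.8% in the members' windows and 52.4% in all, and its part in the difference was not tested. These matches describe letters and are not binding sites.

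Of the 2 glucose carriers, Slc2a1 passed the test. Slc2a1 encodes the widely expressed carrier GLUT1 and lies on chromosome 4. Its values were 12.61, 12.56 and 12.59 in healthy liver under vehicle, 12.68, 12.71 and 12.67 in healthy liver under anti-VEGF, 12.38, 12.19 and 12.42 in fatty liver under vehicle, and 12.25, 12.34 and 12.61 in fatty liver under anti-VEGF. All fatty liver arrays lay below all healthy liver arrays of the same treatment, and array 3 of fatty liver under anti-VEGF lay closest to them. Slc2a1 fell by 0.26 (SE 0.10, limma adjusted p = 0.0499) under vehicle and by 0.29 (SE 0.10, limma adjusted p = 0.0383) under anti-VEGF. With the replicate number as a block, a pairing of the vehicle arrays read from these same values, the limma adjusted p under vehicle was 0.0537. Fits with the block in the 6 vehicle arrays alone, given here and below, were chosen after seeing the data. The first call held in 2 of the 12 fits that left out 1 array, with differences from -0.31 to -0.19, and the second in 4 of the 12, with differences from -0.39 to -0.21. A lower-mean Slc2a1 row, near the limit for testing, differed by -0.20 (SE 0.13, limma adjusted p = 0.242) and -0.26 (SE 0.13, limma adjusted p = 0.131). It was called in neither comparison, and both calls were lost with the mean of all rows of a gene. Slc2a3, the high-affinity carrier GLUT3, ranged from 6.83 to 7.60. Its difference was 0.31 (SE 0.15, limma adjusted p = 0.115) under vehicle, with all 3 fatty liver arrays above all 3 healthy liver arrays (0.0319 with the block in the 6 vehicle arrays alone), and 0.26 (SE 0.15, limma adjusted p = 0.184) under anti-VEGF.

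Hexokinases, which trap glucose as glucose 6-phosphate, diverged most. Hk3, on chromosome 13, read 6.28, 7.43 and 6.07 in healthy liver under vehicle and 5.97, 6.09 and 5.94 in healthy liver under anti-VEGF. In fatty liver it read 8.82, 9.51 and 8.95 with vehicle, then 8.99, 9.22 and 9.24 with anti-VEGF. All 6 fatty liver arrays lay above all 6 healthy liver arrays, and within healthy liver under vehicle array 2 was the high one. Hk3 rose by 2.50 (SE 0.31, a 5.66-fold change, limma adjusted p = 0.000271) under vehicle and by 3.15 (SE 0.31, 8.87-fold, limma adjusted p = 5.3e-05) under anti-VEGF. It was called in all 12 fits that left out 1 array and in every other alternative run for both comparisons, 1 of which, without the 4 arrays high in Xist, set 1 vehicle array against 1.

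The macrophage marker list moved with it. All 14 tested macrophage markers of 15 with a row rose in both liver comparisons, with a median difference of 1.83 (vehicle) and 2.37 (anti-VEGF). Their mean ranged from 8.93 to 9.88 in healthy liver under vehicle, from 8.75 to 8.77 in healthy liver under anti-VEGF, from 10.92 to 11.03 in fatty liver under vehicle and from 10.67 to 10.98 in fatty liver under anti-VEGF. The 9.88 belonged to array 2 of healthy liver under vehicle, the array of that group with the highest Hk3. Of 15 tested T and NK cell markers, all rose in the vehicle comparison and 12 in the anti-VEGF one. The limit for testing itself favours a rise where a marker exceeds it only in fatty liver. Ncr1, an NK cell receptor, exceeded it on 5 arrays, all of fatty liver, so this count is partly set by the limit. Of 11 tested endothelial genes 1 rose and 1 fell, then 2 rose, and of 11 fibroblast and pericyte genes 4 fell in each. Over all genes 19.2% rose and 30.4% fell under vehicle, and 18.2% rose and 27.6% fell under anti-VEGF. In bulk tissue, fewer or more cells of a type and less or more RNA per cell cannot be told apart, and the part of the macrophage markers in the Hk3 difference was not tested.

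**Figure D1:**
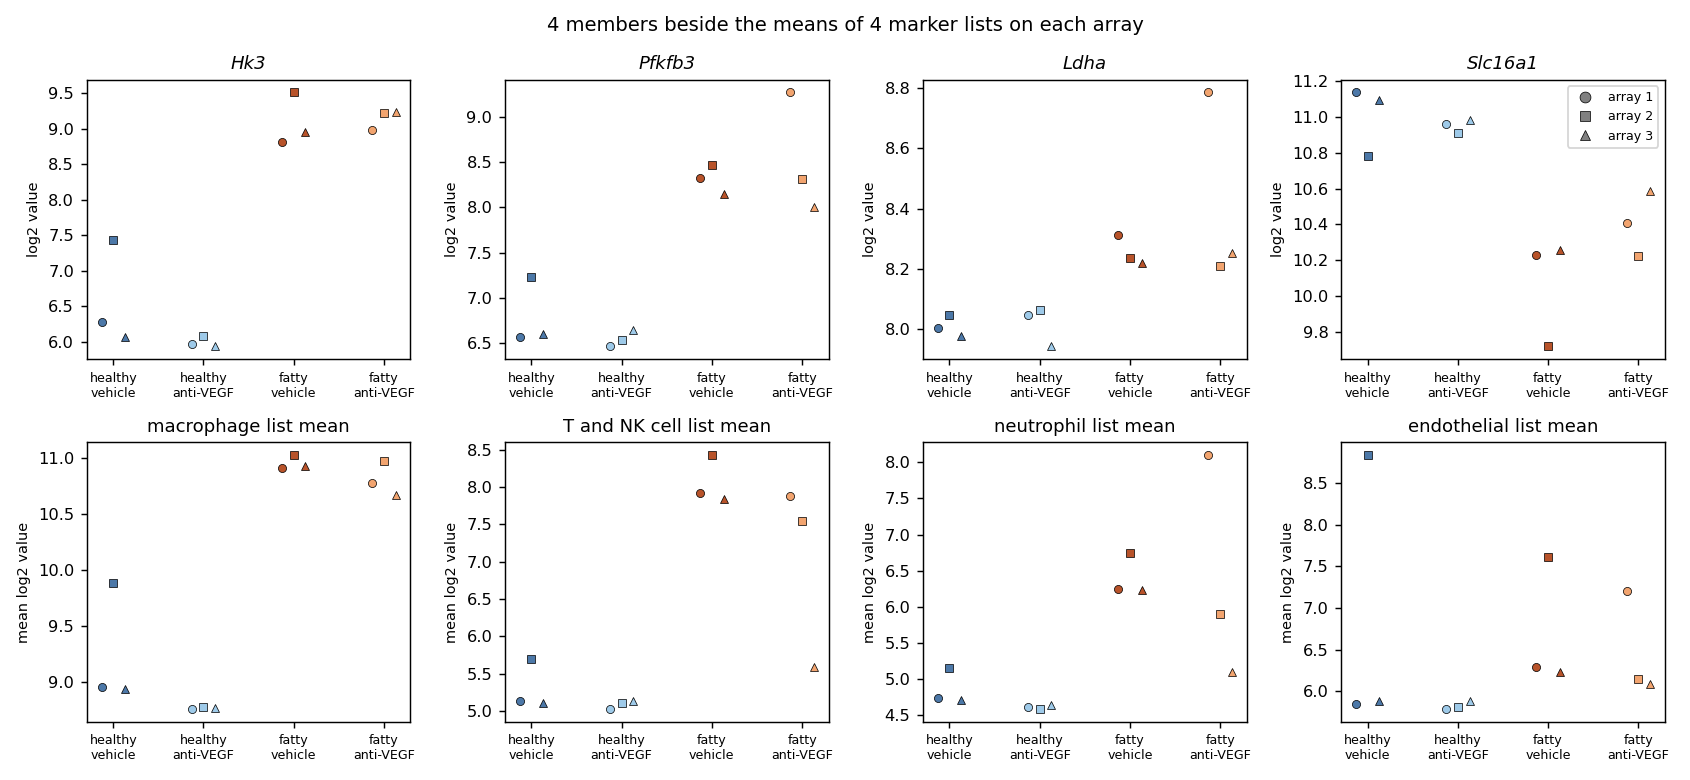
Log2 values of Hk3, Pfkfb3, Ldha and Slc16a1 (top) and mean log2 values of the macrophage, T and NK cell, neutrophil and endothelial marker lists (bottom) on each of the 12 arrays, by group; circles, squares and triangles are arrays 1, 2 and 3. Hk3 and the macrophage mean are high on all 6 fatty liver arrays and intermediate on array 2 of healthy liver under vehicle, at 7.43 and 9.88.

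Hk1, the isoform of most tissues, read 8.67, 8.52 and 8.83 in healthy liver under vehicle and 8.68, 8.71 and 8.77 under anti-VEGF. Fatty liver tumours gave 8.37, 8.24 and 8.43 with vehicle, then 8.40, 8.40 and 8.66 with anti-VEGF. Every fatty liver array lay below the healthy liver arrays of the same treatment, array 3 under anti-VEGF by the least. Hk1 fell by 0.32 (SE 0.10, limma adjusted p = 0.0265) under vehicle and differed by -0.23 (SE 0.10, limma adjusted p = 0.0892) under anti-VEGF. The call under vehicle was lost without array 1 or 3 of healthy liver or array 1 or 2 of fatty liver under vehicle, with differences from -0.40 to -0.25 over the 12 fits that left out 1 array.

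Hk2, an inducible isoform of muscle and many tumours, read 7.91, 7.74 and 7.96 in healthy liver under vehicle and 8.12, 8.25 and 8.08 in fatty liver under vehicle. The 2 groups did not overlap, and Hk2 rose by 0.28 (SE 0.10, limma adjusted p = 0.0329). That call was lost without array 1 or 2 of either vehicle group, with differences from 0.21 to 0.32 over the 12 fits, and with the block in the 6 vehicle arrays alone (limma adjusted p = 0.0834). Under anti-VEGF it lay between 7.97 and 8.07 in healthy liver and read 8.24, 8.07 and 8.34 in fatty liver, a difference of 0.20 (SE 0.10, limma adjusted p = 0.102) with overlap. Relative to Hk1 on the same array, Hk2 was higher in fatty than in healthy liver by 0.60 (SE 0.11) under vehicle and 0.44 (SE 0.06) under anti-VEGF. Hk3 relative to Hk1 was higher by 2.82 (SE 0.57) and 3.38 (SE 0.10). In each of these 4 comparisons the 3 fatty liver arrays lay above the 3 healthy liver arrays, so the exact two-sided permutation p was 0.1, the smallest that 3 against 3 allows. Over the 60 isoform tests run, 15 pairs in 4 comparisons, the smallest Benjamini-Hochberg adjusted exact p was 0.207. Of the 15 pairs, 13 separated the livers under vehicle and 12 under anti-VEGF. How many pairs of other genes do so was not computed.

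Of the 5 tested members from phosphofructokinase to triose phosphate isomerase, Pfkm passed the test. This muscle isoform, on chromosome 15, read 8.02, 7.67 and 7.96 in healthy liver under vehicle and 7.89, 7.89 and 8.03 under anti-VEGF. Fatty liver tumours gave 7.38, 6.72 and 7.14 with vehicle, then 6.69, 7.07 and 7.65 with anti-VEGF. All fatty liver arrays lay below all 6 healthy liver arrays, and fatty liver arrays spread from 6.69 to 7.65. Pfkm fell by 0.81 (SE 0.23, 1.75-fold, limma adjusted p = 0.0153) under vehicle and by 0.80 (SE 0.23, 1.74-fold, limma adjusted p = 0.0181) under anti-VEGF. The first call was lost without array 1 or 3 of healthy liver or array 2 of fatty liver under vehicle, with differences from -0.95 to -0.63 over the 12 fits. The second was lost without array 3 of healthy liver or array 1 or 2 of fatty liver under anti-VEGF, with differences from -1.05 to -0.57. Of 5 tested skeletal muscle genes, Eno3 included, 0 passed the test in either comparison.

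The platelet isoform Pfkp ranged from 9.88 to 10.33 over the 12 arrays, with differences of 0.21 (SE 0.09, limma adjusted p = 0.0830) under vehicle and 0.09 (SE 0.09, limma adjusted p = 0.426) under anti-VEGF. The liver isoform Pfkl differed by -0.20 (SE 0.14, limma adjusted p = 0.25) and -0.29 (SE 0.14, limma adjusted p = 0.109). Pfkm relative to Pfkp on the same array was lower in fatty liver by 1.01 under vehicle (a shift of -1.01, SE 0.30) and by 0.89 under anti-VEGF (a shift of -0.89, SE 0.32). Pfkl relative to Pfkm was higher by 0.60 (SE 0.15) and 0.51 (SE 0.12). Each of these 4 shifts separated the groups completely, with an exact permutation p of 0.1. Pfkl relative to Pfkp shifted by -0.41 (SE 0.15) under vehicle, also with separation. Under anti-VEGF that shift was -0.38 (SE 0.22, exact permutation p = 0.3) with overlap. Aldoc, the aldolase of brain, had a difference of 0.40 (SE 0.20, limma adjusted p = 0.109) under vehicle, and Tpi1, triose phosphate isomerase, of -0.14 (SE 0.09, limma adjusted p = 0.222).

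**Figure D2:**
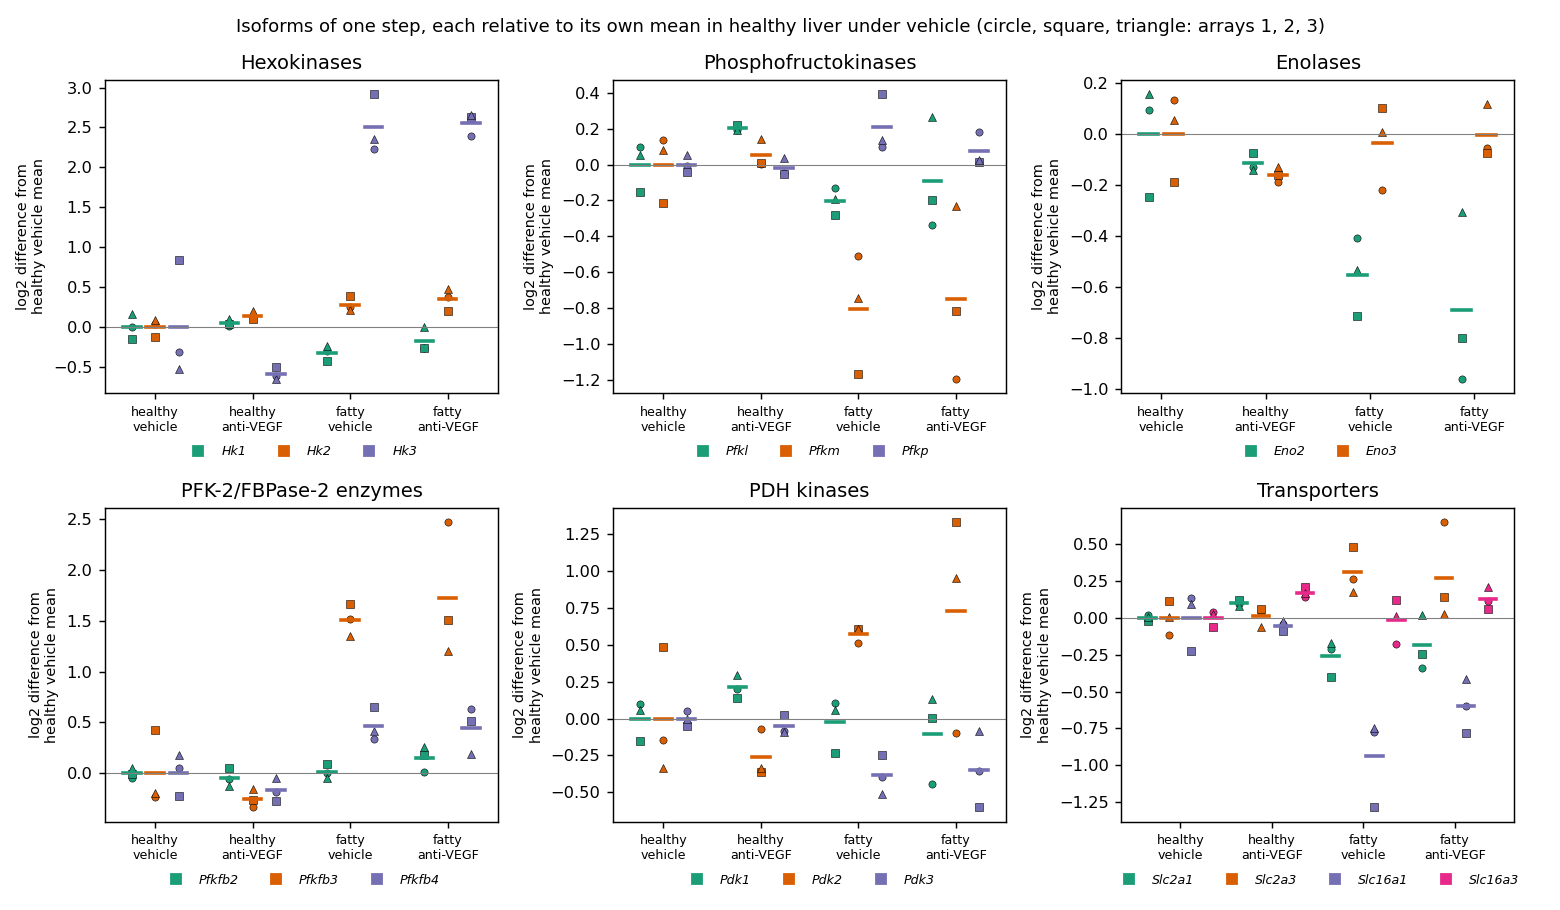
Log2 value of each isoform minus its own mean over the 3 arrays of healthy liver under vehicle, for hexokinases, phosphofructokinases, enolases, the enzymes of fructose 2,6-bisphosphate, pyruvate dehydrogenase (PDH) kinases and transporters; symbols are arrays and short lines group means. Hk3 and Pfkfb3 rise above their families in both fatty liver groups, and Pfkm, Eno2 and Slc16a1 fall below theirs.

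The enzymes of fructose 2,6-bisphosphate make and remove the strongest activator of phosphofructokinase. Pfkfb3, on chromosome 2, is the form with the highest kinase to phosphatase ratio. Its values were 6.57, 7.23 and 6.60 in healthy liver under vehicle, 6.46, 6.53 and 6.64 in healthy liver under anti-VEGF, 8.32, 8.46 and 8.15 in fatty liver under vehicle, and 9.27, 8.31 and 8.01 in fatty liver under anti-VEGF. All 6 fatty liver arrays were above all 6 healthy liver arrays. Array 2 was the high one in healthy liver under vehicle and array 1 in fatty liver under anti-VEGF. Pfkfb3 rose by 1.51 (SE 0.29, 2.85-fold, limma adjusted p = 0.00233) under vehicle and by 1.98 (SE 0.29, 3.95-fold, limma adjusted p = 0.000493) under anti-VEGF. Both calls held in all 12 fits that left out 1 array, many of which keep a near copy of the array left out. Both were lost when near-identical arrays were averaged. The neutrophil list had a mean of 8.10 on array 1 of fatty liver under anti-VEGF and of 5.90 and 5.10 on arrays 2 and 3. The 5.10 lay within the healthy liver range of 4.59 to 5.15, while Pfkfb3 on that array, at 8.01, did not. Array 1 was also the highest of its group in other lists, among them endothelial, fibroblast and pericyte, T and NK cell and skeletal muscle. Of the 7 tested neutrophil genes 3 rose in each liver comparison, where 19.2% and 18.2% of all genes did. S100a8 of that list exceeded the limit for testing on 5 arrays, all of fatty liver, and for such a gene the limit favours a rise. The part of the neutrophil list in the Pfkfb3 values was not tested.

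Pfkfb4 read 7.26, 6.99 and 7.39 in healthy liver under vehicle and 7.54, 7.87 and 7.63 in fatty liver under vehicle, without overlap. Under anti-VEGF it read 7.02, 6.93 and 7.17 in healthy liver and 7.84, 7.73 and 7.40 in fatty liver, also without overlap. It rose by 0.47 (SE 0.14, limma adjusted p = 0.0214) and by 0.62 (SE 0.14, limma adjusted p = 0.00704). The call under vehicle was lost without array 2 of either vehicle group, with differences from 0.36 to 0.55 over the 12 fits, and with the block in the 6 vehicle arrays alone (limma adjusted p = 0.0593). Pfkfb2, the heart form, ranged only from 6.26 to 6.64, with differences of 0.02 (SE 0.09, limma adjusted p = 0.899) and 0.19 (SE 0.09, limma adjusted p = 0.091). Relative to Pfkfb4 on the same array, Pfkfb3 was higher in fatty liver by 1.04 (SE 0.34) under vehicle and 1.37 (SE 0.28) under anti-VEGF, with complete separation and an exact permutation p of 0.1 each. Pfkfb2 relative to Pfkfb4 separated the livers under vehicle and overlapped under anti-VEGF, with a shift of -0.42 (SE 0.23, exact permutation p = 0.2).

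Below triose phosphate, Gapdh, Pkm and Pgk1 did not pass the test in either liver comparison. Gapdh, which oxidises glyceraldehyde 3-phosphate, ranged from 12.44 to 12.61 over the 12 arrays, and Pkm, pyruvate kinase of most tissues and tumours, from 12.02 to 12.24. Their differences between livers under vehicle were -0.05 (SE 0.07, limma adjusted p = 0.513) and -0.04 (SE 0.07, limma adjusted p = 0.7). The 95% interval of the Gapdh difference ran from -0.20 to 0.09, and that of Pkm from -0.19 to 0.12. Under anti-VEGF Gapdh differed by -0.08 (SE 0.07, limma adjusted p = 0.317) and Pkm by -0.11 (SE 0.07, limma adjusted p = 0.198). All fatty liver arrays lay below all healthy liver arrays for both under anti-VEGF, and for Pkm under vehicle too. Pgk1, phosphoglycerate kinase on chromosome X, differed by -0.01 (SE 0.09, limma adjusted p = 0.925) under vehicle and -0.23 (SE 0.09, limma adjusted p = 0.0648) under anti-VEGF.

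Pgam1, phosphoglycerate mutase, had 2 rows that disagreed. The row used, with the higher mean, differed by 0.03 (SE 0.08, limma adjusted p = 0.777) under vehicle and -0.16 (SE 0.08, limma adjusted p = 0.146) under anti-VEGF. The other row read 10.05, 9.53 and 10.20 in healthy liver under vehicle and 9.51, 9.25 and 9.20 in fatty liver under vehicle, and it fell by 0.61 (SE 0.23, limma adjusted p = 0.0472). Under anti-VEGF it fell by 0.75 (SE 0.23, limma adjusted p = 0.022). Which row reflects the transcript was not tested, so the direction of Pgam1 is uncertain.

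Enolases make phosphoenolpyruvate. Eno2, on chromosome 6, read 7.58, 7.23 and 7.64 in healthy liver under vehicle and 7.35, 7.41 and 7.34 under anti-VEGF. In fatty liver it read 7.07, 6.77 and 6.95 with vehicle, then 6.52, 6.68 and 7.18 with anti-VEGF. All fatty liver arrays lay below all healthy liver arrays. Eno2 fell by 0.55 (SE 0.17, limma adjusted p = 0.0192) and by 0.57 (SE 0.17, limma adjusted p = 0.0186). The first call was lost without array 1 or 3 of healthy liver or array 2 of fatty liver under vehicle (differences from -0.68 to -0.47), and the second without array 2 of healthy liver or array 1 or 2 of fatty liver under anti-VEGF (from -0.77 to -0.44). Eno3, the muscle form, differed by -0.04 (SE 0.11, limma adjusted p = 0.8) and 0.16 (SE 0.11, limma adjusted p = 0.264). The Eno2 value relative to Eno3 was lower in fatty liver, with shifts of -0.52 (SE 0.19) and -0.73 (SE 0.15), complete separation and an exact permutation p of 0.1 each. The general isoform Eno1 had no row of its own, so the share of the family that Eno2 makes up cannot be given.

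Bpgm and Minpp1 act on 2,3-bisphosphoglycerate, a side product of the pathway. Minpp1, a phosphatase, read 9.62, 9.41 and 9.63 in healthy and 9.10, 8.94 and 9.13 in fatty liver under vehicle. Under anti-VEGF the values were 9.55, 9.65 and 9.65 in healthy liver and 8.96, 9.23 and 9.44 in fatty liver, so neither comparison had overlap. Minpp1 fell by 0.49 (SE 0.12, limma adjusted p = 0.0077) and by 0.40 (SE 0.12, limma adjusted p = 0.0207). The second call was lost without array 2 or 3 of healthy liver or array 1 of fatty liver under anti-VEGF, with differences from -0.52 to -0.28. A lower-mean Minpp1 row differed by -0.06 and -0.34 and was not called in either. Bpgm, the mutase, differed by -0.34 (SE 0.15, limma adjusted p = 0.0831) and -0.33 (SE 0.15, limma adjusted p = 0.0949), with all fatty liver arrays below the healthy liver arrays of the same treatment. With the block in the 6 vehicle arrays alone the limma adjusted p of the first was 0.0353.

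**Figure D3:**
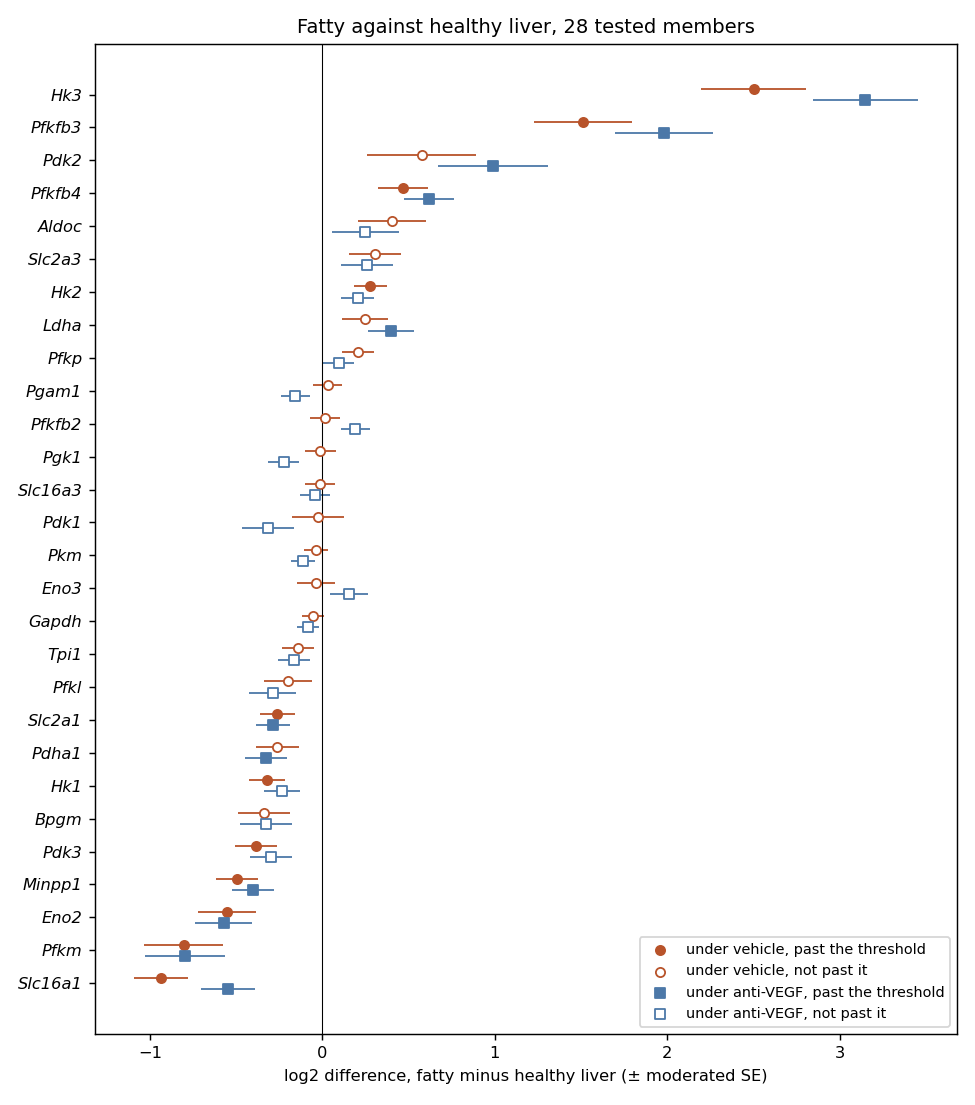
Log2 difference of fatty minus healthy liver for the 28 tested members, with bars for the moderated SE; circles are the comparison under vehicle and squares under anti-VEGF, filled where the limma adjusted p was at most 0.05. Hk3 at 2.50 and 3.15 and Pfkfb3 at 1.51 and 1.98 stand far to the right, and Slc16a1 at -0.93 and -0.55, Pfkm at -0.81 and -0.80 and Eno2 at -0.55 and -0.57 lie farthest to the left.

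Lactate is made by lactate dehydrogenase and leaves or enters cells through monocarboxylate carriers. Ldha, the subunit that favours lactate formation, lay between 7.98 and 8.05 in healthy liver and read 8.31, 8.24 and 8.22 in fatty liver under vehicle. The difference was 0.25 (SE 0.13, limma adjusted p = 0.146), although the groups did not overlap. With the block in the 6 vehicle arrays alone, a fit chosen after seeing the data, the limma adjusted p was 0.0398. Under anti-VEGF it read 8.05, 8.07 and 7.94 in healthy and 8.79, 8.21 and 8.25 in fatty liver, and rose by 0.40 (SE 0.13, limma adjusted p = 0.0327). Array 1 was the high one in that group, as for Pfkfb3, the neutrophil list and several other marker lists. Without it the Ldha difference was 0.21 and still passed the test, and the call was lost without any 1 array of healthy liver under anti-VEGF, with differences up to 0.50 over the 12 fits.

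Slc16a1, on chromosome 3, encodes the monocarboxylate carrier MCT1. Its values were 11.14, 10.78 and 11.10 in healthy liver under vehicle, 10.96, 10.91 and 10.98 in healthy liver under anti-VEGF, 10.23, 9.72 and 10.26 in fatty liver under vehicle, and 10.41, 10.22 and 10.59 in fatty liver under anti-VEGF. All 6 fatty liver arrays lay below all 6 healthy liver arrays. It fell by 0.93 (SE 0.16, 1.91-fold, limma adjusted p = 0.00127) under vehicle and by 0.55 (SE 0.16, 1.46-fold, limma adjusted p = 0.0178) under anti-VEGF. The call under vehicle held in all 12 fits that left out 1 array, but those fits keep a near copy of most arrays left out. It was lost when near-identical arrays were averaged. The call under anti-VEGF was lost without array 1 or 3 of healthy liver or array 2 of fatty liver under anti-VEGF, with differences from -0.64 to -0.45. Slc16a3, the carrier MCT4 of lactate-exporting cells, differed by -0.02 (SE 0.09, limma adjusted p = 0.897) and -0.04 (SE 0.09, limma adjusted p = 0.706). Relative to Slc16a3 on the same array, Slc16a1 was lower in fatty liver, with shifts of -0.92 (SE 0.26) and -0.50 (SE 0.07), complete separation and an exact permutation p of 0.1 each.

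Most cell cycle genes fell under vehicle, as Slc16a1 did. Of 11 tested, 9 fell under vehicle, where 30.4% of all genes did. Under anti-VEGF 3 of the 11 fell, near the share of all genes, 27.6%. The mean of the list ranged from 10.26 to 10.46 over the healthy liver arrays and from 9.49 to 9.87 in fatty liver under vehicle. It was 9.80, 9.95 and 10.41 on the arrays of fatty liver under anti-VEGF. Array 3 of that group had the highest fatty liver values of both Slc16a1 and the cell cycle list. Arrays 1 and 2 went in opposite order, with Slc16a1 at 10.41 and 10.22 beside 9.80 and 9.95 for the list. Array 3 was also the highest of its group in Hk1, Pfkm, Eno2, Minpp1, Slc2a1, Pdk3 and Pdha1. Of 5 tested epithelial tumour cell markers, 2 fell and 1 rose in each comparison. Krt8 fell by 0.84 and 0.87 and Krt18 by 0.88 and 1.28, while Cdh1, the adhesion protein E-cadherin, rose by 2.37 (SE 0.48, limma adjusted p = 0.00312) and 1.61 (SE 0.48, limma adjusted p = 0.0202). The part of tumour cell share in the Slc16a1 difference was not tested.

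Pyruvate dehydrogenase carries pyruvate into the mitochondrial cycle, and its kinases switch it off. Pdk3, on chromosome X, read 10.32, 10.21 and 10.27 in healthy and 9.87, 10.02 and 9.76 in fatty liver under vehicle. The groups did not overlap, and Pdk3 fell by 0.38 (SE 0.12, limma adjusted p = 0.0251), a call lost without array 1 or 3 of either vehicle group (differences from -0.45 to -0.32). Under anti-VEGF the difference was -0.30 (SE 0.12, limma adjusted p = 0.0674). Pdk2 read 5.10, 5.73 and 4.91 in healthy and 5.76, 5.85 and 5.85 in fatty liver under vehicle, near the limit for testing, with a difference of 0.58 (SE 0.32, limma adjusted p = 0.155, and 0.0494 with the block in the 6 vehicle arrays alone). Under anti-VEGF it read 5.17, 4.89 and 4.91 in healthy and 5.15, 6.58 and 6.20 in fatty liver. It rose by 0.99 (SE 0.32, limma adjusted p = 0.0281), but array 1 of fatty liver lay within the healthy liver range. That call was lost without array 2 or 3 of either anti-VEGF group, with differences from 0.69 to 1.40.

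Pdk1, the kinase best known from hypoxia, differed by -0.02 (SE 0.15, limma adjusted p = 0.908) under vehicle and -0.32 (SE 0.15, limma adjusted p = 0.106) under anti-VEGF. Pdk2 relative to Pdk3 on the same array was higher in fatty liver by 0.96 (SE 0.28) and 1.29 (SE 0.50), each with complete separation and an exact permutation p of 0.1. Pdk1 relative to Pdk2 overlapped between livers under vehicle and separated them under anti-VEGF. Pdk1 relative to Pdk3 overlapped in both. Pdha1, the catalytic subunit on chromosome X, differed by -0.26 (SE 0.12, limma adjusted p = 0.0999) and fell by 0.33 (SE 0.12, limma adjusted p = 0.05) under anti-VEGF, where array 3 of fatty liver overlapped healthy liver. That call held in 1 of the 12 fits that left out 1 array.

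**Figure D4:**
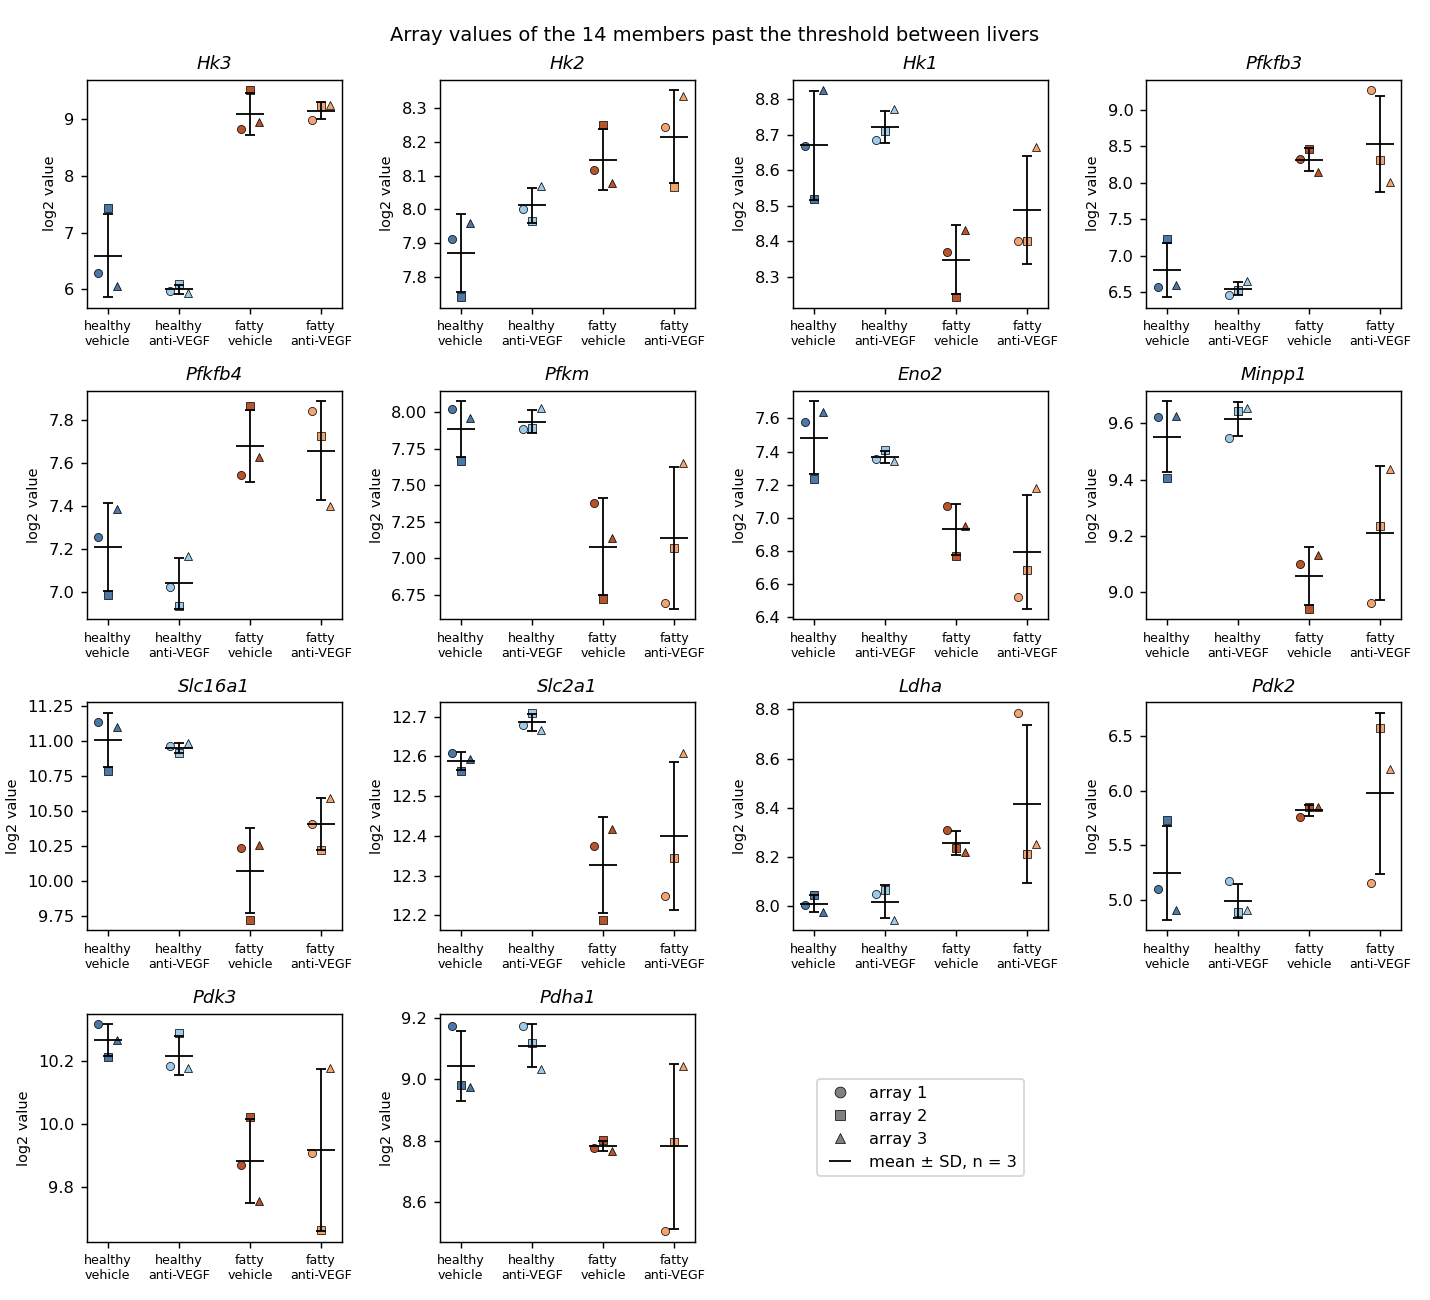
Log2 values on the 12 arrays for the 14 members past the limma threshold in either liver comparison, by group, with circles, squares and triangles for arrays 1, 2 and 3 and a horizontal line with bars for the mean ± SD (n = 3). The vertical scales differ between panels; Hk3 spans 5.94 to 9.51 and Hk2 only 7.74 to 8.34, and array 3 of fatty liver under anti-VEGF is the highest of its group in Hk1, Pfkm, Eno2, Minpp1, Slc16a1, Slc2a1, Pdk3 and Pdha1.

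Counted by arrays, 8 of the 28 members had all 3 fatty liver arrays above all 3 healthy liver arrays under vehicle, and 11 had them below, where 23.6% and 37.2% of all genes did. In the anti-VEGF groups 6 were above and 10 below, where 21.9% and 36.6% of all genes were separated in those directions. The members' shares, 28.6% above and 39.3% below, then 21.4% above and 35.7% below, lay near those of all genes. Without array 3 of fatty liver under anti-VEGF, 13 members in place of 6 were called lower under anti-VEGF, while over all genes 36.3% in place of 27.6% were. The added ones included Tpi1, Pgk1, Pgam1, Pfkl, Pdk1, Pdk3 and Hk1.

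Related genes outside the 34 were called in both directions. Of 23 other tested genes of glucose entry, glycolysis and pyruvate use, 5 rose and 5 fell under vehicle, where 19.2% of all genes rose and 30.4% fell. Under anti-VEGF 6 rose and 5 fell, where 18.2% of all genes rose and 27.6% fell. Slc16a7, the carrier MCT2, rose by 1.82 (SE 0.19, limma adjusted p = 0.000148) and 2.25 (SE 0.19, limma adjusted p = 2.93e-05), opposite to Slc16a1. Arrdc4 and Txnip, arrestin-like proteins that limit glucose uptake, rose by 2.16 and 0.52 with vehicle, then by 2.38 and 0.57 with anti-VEGF. Galm, which interconverts the anomers of hexoses, rose by 1.00 and 0.94. Pdhx, a structural subunit of the pyruvate dehydrogenase complex, fell by 0.33 and 0.53.

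Among 11 tested genes of gluconeogenesis and glycogen, 2 rose and 3 fell under vehicle, where 19.2% and 30.4% of all genes did. Under anti-VEGF 3 rose and 1 fell, where 18.2% and 27.6% of all genes did. Pygl, the liver form of glycogen phosphorylase, rose by 1.56 (SE 0.26, limma adjusted p = 0.00123) and 1.44 (SE 0.26, limma adjusted p = 0.00181), and Pck2, mitochondrial phosphoenolpyruvate carboxykinase, fell by 0.70 and 0.60. Of 6 pentose phosphate genes, Taldo1, transaldolase, rose by 0.82 and 0.79, and Rpia, ribose 5-phosphate isomerase, fell by 0.84 under vehicle. Of 7 tested regulators, 3 rose and 2 fell under vehicle, where 19.2% and 30.4% of all genes did. Under anti-VEGF 2 rose and 2 fell, where 18.2% and 27.6% of all genes did. The 2 that fell in each were Myc and Hif1a. Myc, a driver of glycolytic genes, fell by 0.62 (SE 0.14, limma adjusted p = 0.0056) and 0.74 (SE 0.14, limma adjusted p = 0.00238). Hif1a, the oxygen-regulated factor, fell by 0.29 (SE 0.08, limma adjusted p = 0.0169) and 0.30 (SE 0.08, limma adjusted p = 0.0156) in transcript level.

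Hypoxia response genes outside the 34 were called in both directions. Of 14 tested, 2 rose and 2 fell under vehicle, where 19.2% and 30.4% of all genes did. Under anti-VEGF 1 rose and 5 fell, where 18.2% and 27.6% of all genes did. The medians of the list were -0.16 and -0.29, beside -0.12 and -0.13 for all genes. Vegfa, which encodes the ligand named in the treatment label, rose by 0.43 (SE 0.12, limma adjusted p = 0.0128) under vehicle and differed by 0.19 (SE 0.12, limma adjusted p = 0.213) under anti-VEGF. Car9, carbonic anhydrase IX, differed by 0.05 (SE 0.23, limma adjusted p = 0.887) and 0.10 (SE 0.23, limma adjusted p = 0.74). Plod2, a collagen lysyl hydroxylase, fell by 1.24 and 1.03.

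Anti-VEGF treatment changed none of the 28 members past the threshold in either liver. In healthy liver limma called 0 of the 13286 genes, 0% of them, and 1 member, Pgam1, had an unadjusted p below 0.05, beside 8.41% of all genes. In fatty liver it called 1 gene, 0.00753%, and no member; 0 members and 5.86% of all genes had an unadjusted p below 0.05. The interaction of liver and treatment gave 0 genes, 0% of them, and 0 members with an unadjusted p below 0.05, beside 5.1% of all genes. A missed threshold does not show that the treatment left these genes alike.

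In healthy liver, 10 of the 28 members (35.7%) nevertheless had all 3 anti-VEGF arrays above all 3 vehicle arrays, where 13.1% of all genes did, and 1 member, Bpgm, had all 3 below, where 11.7% of all genes did. The 10 were Slc2a1, Hk2, Pfkl, Tpi1, Gapdh, Pgk1, Pgam1, Pkm, Slc16a3 and Pdk1, and their differences lay between 0.06 and 0.21. Pgk1 read 12.09, 12.04 and 12.05 with vehicle, then 12.25, 12.23 and 12.28 with anti-VEGF, a difference of 0.19 (SE 0.09, limma adjusted p = 0.611). Pgam1 in the row used read 10.79, 10.94 and 10.78 with vehicle, then 11.05, 11.10 and 10.97 with anti-VEGF, a difference of 0.21 (SE 0.08, limma adjusted p = 0.543). These 3 anti-VEGF arrays were near-identical, and the part of that in the count was not tested. Vehicle arrays 1 and 3 were high in Xist and the anti-VEGF arrays were not, and the part of that was not tested either. Both this comparison and that of the livers under vehicle use the arrays of healthy liver under vehicle.

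In fatty liver 0 members had all 3 anti-VEGF arrays above the vehicle arrays, where 3.07% of all genes did, and 1 member, Aldoc, had all 3 below, where 4.99% did. Pgk1 there read 12.07, 12.02 and 12.05 with vehicle, then 11.88, 11.96 and 12.24 with anti-VEGF. The member with the smallest p in fatty liver was Slc16a1, with a difference of 0.34 (SE 0.16, limma adjusted p = 0.795) and array 2 under anti-VEGF within the vehicle range. Its interaction was 0.39 (SE 0.22, limma adjusted p = 0.979), with a 95% interval from -0.10 to 0.88. Hk3 differed by -0.59 (SE 0.31, limma adjusted p = 0.656) with treatment in healthy liver, where vehicle array 2 was high, and by 0.06 (SE 0.31, limma adjusted p = 0.978) in fatty liver.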

How the data were processed

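Total RNA of 12 samples, each labelled a biological replicate, was amplified and labelled with biotin for Affymetrix whole-transcript arrays, per the labels' protocols. Whether the near-identical arrays come from separate tumours is not given in the sources used. The authors deposited 1 column per array of processed values, made with Affymetrix Expression Console per the submitters' processing notes. The values behave as log2 intensities in the deposited table, with array medians from 4.88 to 4.99. No source names the summarisation method, version or centring (each is not given in the sources used), and depth has no meaning for arrays, whose number limits the precision. Of 41345 rows, 23521 carry 1 gene symbol in the platform annotation, 1814 several and 16010 none. Only rows with 1 symbol were named, and 22180 genes resulted.

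A gene was tested when it exceeded 4.93, the median of the table, on at least 3 arrays. limma 3.58.1 in R 4.3.3 fitted 1 mean per group over all 12 arrays with empirical Bayes moderation (8 residual and 2.4 prior degrees of freedom), and p-values were Benjamini-Hochberg adjusted over 13286 genes. SE is the moderated SE, except for isoform shifts, where it is the SE of the difference of 2 group means. Isoform shifts are the difference of 2 log2 values on one array, compared between groups by an exact two-sided permutation test in scipy 1.17.1. The fit was tested on simulated data with independent noise on each array, which does not show how it behaves with near-identical arrays. Nothing in the labels says which mice shared a cage, day or scan, and p-values measure the spread between these arrays.

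Replicate numbers are shared between groups. The deviations of same-numbered arrays from their group means correlated at 0.54, 0.70 and 0.55 between the vehicle groups of healthy and fatty liver. The numbers were taken to pair the arrays there, on the data alone. Arrays 1 and 3 also correlated across numbers (0.57 and 0.55), so which of them pairs with which is not settled. No other comparison had every pair above 0.1. Fits with the number as a block are in the alternatives.

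All 34 members are named. Other genes named are defining markers, Hif1a, Vegfa, Car9, Xist, or up to 4 genes of smallest p per list. The members and lists were chosen with earlier results of these data known. The alternatives changed the limit for testing, normalization, centring, row choice, prior, array weights, samples and blocks, and left out each array in turn.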

Additional observations from a re-analysis of the deposited data

How the results depend on the processing

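None of the 28 members reversed its direction in a called comparison under any alternative run; of 686 values of called members under alternatives, 542 kept their side of the threshold, 123 lost it and 21 gained it. Averaging near-identical arrays left 1 member higher and 0 lower in both liver comparisons, and Hk3 was the one higher in each; the split of all called genes then moved from 38.7% to 82.4% higher under vehicle and from 39.6% to 95.5% under anti-VEGF. This leaves 8 samples, 1 of them for healthy liver under anti-VEGF. Leaving out the 4 arrays high in Xist set 1 vehicle array against 1 in the liver comparison under vehicle, with the spread taken from the anti-VEGF groups. Then 1 member was higher (Hk3) and 1 lower (Slc16a1) under vehicle, 3 were higher and 3 lower under anti-VEGF, and 1 was lower with treatment in healthy liver. Array weights gave 8 higher and 11 lower under vehicle, 15 lower under anti-VEGF, 2 higher and 4 lower with treatment in healthy liver, 1 higher and 2 lower in fatty liver, and 2 lower for the interaction; the cause was not tested. The shares of all genes moved too with weights. Under vehicle those called higher went from 19.2% to 24.7% and those called lower from 30.4% to 46.4%. Those called lower under anti-VEGF went from 27.6% to 46.8%. Fitting only the groups compared gave 3 higher and 3 lower under anti-VEGF, where 16.2% and 22.2% of all genes were. Centring on each array's median gave 13 lower under anti-VEGF, where 35% of all genes were. Leaving out healthy liver vehicle array 2 and fatty liver anti-VEGF array 3 together, an alternative chosen after seeing the data, gave 14 lower under anti-VEGF, where 39.3% of all genes were. Leaving out 1 array at a time gave 2 to 7 higher and 2 to 8 lower under vehicle, and 3 to 6 higher and 1 to 13 lower under anti-VEGF. Over all genes these fits called 15.5% to 20.7% higher and 19.4% to 35.3% lower under vehicle. Under anti-VEGF they called 14.7% to 19.9% of all genes higher and 17.4% to 36.3% lower. The lows of 2 came without array 2 of either vehicle group for higher members and without array 1 or 3 of healthy liver under vehicle for lower members. The low of 1 came without array 3 of healthy liver under anti-VEGF or array 1 or 2 of fatty liver under anti-VEGF, and the 13 without array 3 of fatty liver under anti-VEGF. With the replicate block, 4 members were higher and 6 lower under vehicle, where 19.2% and 31% of all genes were. Under anti-VEGF 5 members were higher and 6 lower, where 18.4% and 28.7% of all genes were. With the 6 vehicle arrays alone and the block, chosen after seeing the data, 5 members were higher and 8 lower. There 20.2% and 33.8% of all genes were. The block changed no count by over 1.5 times but changed single calls. Slc2a1 was lost under vehicle with all 12 arrays. With the vehicle arrays alone Hk2 and Pfkfb4 were lost and Slc2a3, Ldha, Pdk2 and Bpgm gained. Under anti-VEGF, where the numbers did not pair the arrays, Pdha1 was lost and Hk1 gained. Isoform shifts were recomputed in the liver comparisons only for Hk3 and Hk2 against Hk1, Pfkl against Pfkm, Eno2 against Eno3 and Pfkfb2 against Pfkfb3. With quantile normalization they kept their direction and size within 1 SD. The mean of all rows could not change them, because each of these genes had 1 row. The other pairs, and averaging of near-identical arrays, were not tried for the shifts. Quantile normalization and centring moved the median of all genes by less than 0.1.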
